A study of Saccharomyces cerevisiae with 100 samples.

Results

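Of 95 sequenced suppressors of the MMS sensitivity of rad53∆ sml1∆ yeast, 49 carried a single-nucleotide variant (SNV) in GUD1 (YDL238C), and these strains were compared with the 46 suppressors that did not carry it. A suppressor was counted as a carrier when the SNV, C29373A on chromosome IV, had an allele frequency of at least 0.9, the allele frequency being the fraction of the reads over a site that show the alternative base. The base before the position is that of the reference strand and the base after it the alternative base, and positions count from 1 on the chromosome in sacCer2. Since this SNV chose the groups, its values and those of SNVs that follow it are given as a description, with no test.

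Rad53 is an effector kinase of the DNA damage checkpoint of budding yeast, and cells without it die when they replicate DNA alkylated by methyl methanesulfonate (MMS). Loss of Sml1, an inhibitor of ribonucleotide reductase, keeps cells without Rad53 alive in the absence of damage. GUD1 encodes guanine deaminase, which converts guanine to xanthine in purine salvage. A colony that grows on MMS can carry the mutation that allows its growth, mutations that arose by chance, and mutations that its ancestor already had, and mutations of the last kind are shared by all descendants of that ancestor.

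Genomic DNA of 100 strains was sequenced, with 1 library each, in 3 experiments, and the experiment used here held the 95 suppressors and their control YJT75. All suppressors, carriers or not, are rad53∆ sml1∆ strains in the W303 background. Their control YJT75 is labelled MATa sml1Δ::URA3 rad53Δ::LEU2, also in W303. All strains were grown in YPD at 30 °C before DNA was extracted. Suppressors were colonies picked from MMS plates, which the study describes as independent isolates, and the number of parental cultures is not given in the sources used here. Each suppressor is 1 strain, so the spread given below is that between strains, and no strain has a replicate library.

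The table of the suppressors held 2904 SNVs, of which 2864 were found in 1 strain, 31 in 2 strains and 9 in 6 or more strains. The 3 SNVs with the most carriers were found in the same 49 strains, and 0 strains carried some but not all of them. The first was A235130G on chromosome II, outside annotated genes, for which the deposited table lists HTB2, a histone H2B gene, and UTP20, a ribosome biogenesis gene, as neighbours. The second was the missense SNV in GUD1. The third was A104034G on chromosome VII, a synonymous SNV in CHC1 (YGL206C), which encodes the clathrin heavy chain.

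The groups were far apart at these positions. At the GUD1 SNV, 47 of the 49 carriers had an allele frequency of 1, and the lowest carrier had 0.987. The highest of the 46 other strains had 0.0092, and YJT75 had 0.0046. Thus no strain lay near the limit of 0.9. At the chromosome II SNV the carriers ranged from 0.994 to 1, with 42 of 49 at 1, and all other strains were at 0. At the CHC1 SNV the lowest carrier had 0.993, and the highest other strain had 0.0044. The GUD1 SNV was the only one listed in that gene in any suppressor. None of the 163 SNVs and 25 SNVs of the other 2 experiments of the series was in the table of the suppressors.

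**Figure D1:**
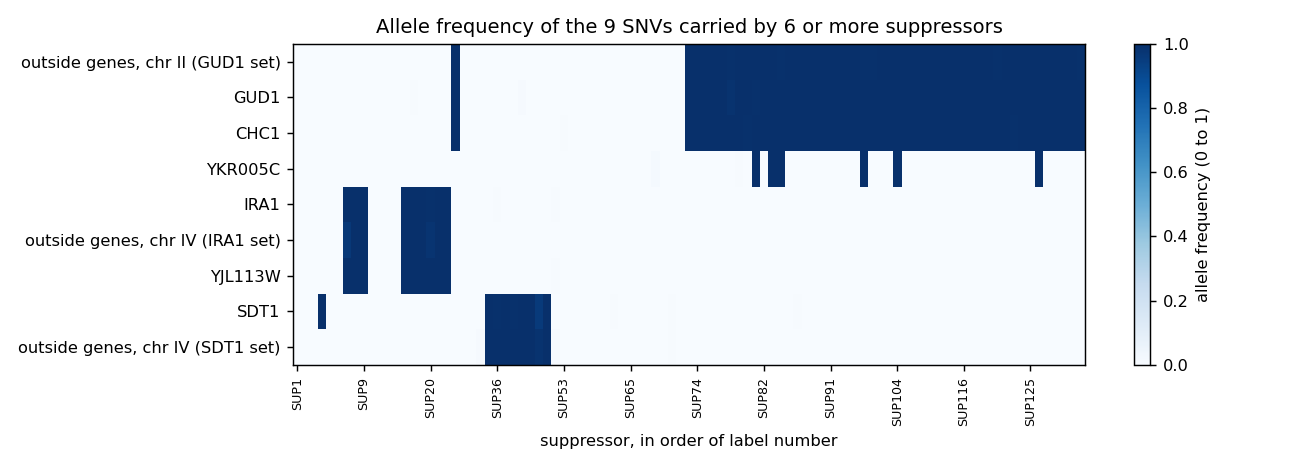
Allele frequency (shade, 0 to 1) of the 9 SNVs carried by 6 or more suppressors (rows) in the 95 suppressors (columns, in order of label number). The upper 3 rows fill the same 49 columns, 48 of them numbered 73 or more; the YKR005C SNV lies inside these columns, and the other 5 SNVs lie outside them.

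The groups also followed the labels of the strains. Of the carriers, 48 were numbered 73 or more and 1, SUP23, was numbered below, whereas all 46 other strains were numbered 72 or less. Any difference between the groups described below therefore cannot be told apart from one between strains with low and high label numbers, whatever those numbers stand for. Which strains were sequenced with the shorter and which with the longer reads is not given in the sources used here.

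Smaller sets of strains lay within each group. Among the carriers, 6 strains (SUP81, SUP83, SUP84, SUP96, SUP104 and SUP126) shared the missense SNV G448514T on chromosome XI in YKR005C, an uncharacterized open reading frame, with an allele frequency of at least 0.994. Among the others, 9 strains shared the missense SNV C520421T on chromosome II in IRA1, a negative regulator of Ras, together with 2 SNVs elsewhere. A further 9 of the others shared C78715A on chromosome VII in SDT1, which encodes a pyrimidine nucleotidase, and 8 of these also shared an SNV outside genes on chromosome IV. Each of these SNVs was carried in 1 group only.

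SNVs found in exactly 2 strains also stayed within a group. The 31 such SNVs joined 8 pairs of strains, of which 4 pairs with 22 SNVs were carriers, 4 pairs with 9 SNVs were others, and 0 pairs crossed the groups. Among the carriers, SUP118 and SUP119 shared 19 SNVs, and 1 further SNV was found in SUP118 alone and 6 in SUP119 alone. The lowest allele frequency of the 19 shared SNVs in either strain was 0.983. These 2 strains cannot be counted as independent.

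The other 3 pairs of carriers shared 1 SNV each. SUP75 and SUP93 shared the missense SNV G1042007A in GDH1, a glutamate dehydrogenase gene on chromosome XV, with an allele frequency of 1 in both. SUP106 and SUP117 shared T136971A on chromosome XI, outside annotated genes, with an allele frequency of 1 in both. SUP86 and SUP96 shared the synonymous SNV A88006G on chromosome III in YCL019W, a gene of a Ty retrotransposon, at 0.733 and 1. At this position all 95 suppressors had an allele frequency above 0, up to 0.353 in the strains that were not counted, and YJT75 had 0.0939, so this SNV differs from the others in its background.

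To compare what each strain had gained beside the shared SNVs, the 9 SNVs carried by 6 or more strains were left out and the remaining 2895 were counted where they reached an allele frequency of 0.7. Carriers had 22.2 ± 10.0 SNVs per strain (SD, n = 49, median 22, from 0 to 41). The others had 29.2 ± 11.4 SNVs per strain (SD, n = 46, median 29.5, from 0 to 48). Carriers thus had fewer SNVs, with a difference of -6.95 in carriers minus others (SE 2.21, 95% interval from -11.3 to -2.63), or 0.762 times as many, and the groups overlapped widely. The difference passed a two-sided permutation test over strains (p = 0.00246, adjusted p = 0.0196 over 12 measures per strain by Benjamini-Hochberg).

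The difference was also found with a lower limit. At 0.40, the lowest value that the authors kept, carriers had 27.4 ± 9.78 SNVs (SD, n = 49, from 7 to 44) and the others 34.4 ± 12.04 (SD, n = 46, from 9 to 57), a difference of -6.92 (permutation test, adjusted p = 0.0285). It did depend on the set of strains. Without the 9 IRA1 strains, the difference was -5.69 and no longer passed the test (permutation test, p = 0.0148, adjusted p = 0.0674). Without the IRA1, SDT1 and YKR005C strains together, a setting chosen after seeing the data, it was -6.83 and passed (permutation test, adjusted p = 0.0463). The 9 IRA1 strains had 34.3 ± 11.7 SNVs (SD, from 16 to 47), the highest mean among the sets of strains described here. The 9 SDT1 strains had 23.6 ± 12.3 (SD, from 0 to 36), and the remaining 28 others had 29.3 ± 10.6 (SD, from 9 to 48). Among the carriers, the 6 YKR005C strains had 20.3 ± 7.26 SNVs (SD, from 9 to 29) and the other 43 had 22.5 ± 10.4 (SD, from 0 to 41). SUP23, the carrier with a low label number, had 9 SNVs, and among the 46 others only 1 strain had fewer and 1 had as many. At 0.40, however, it had 32 SNVs, above the mean of the carriers, and most of its SNVs were at intermediate allele frequencies.

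**Figure D2:**
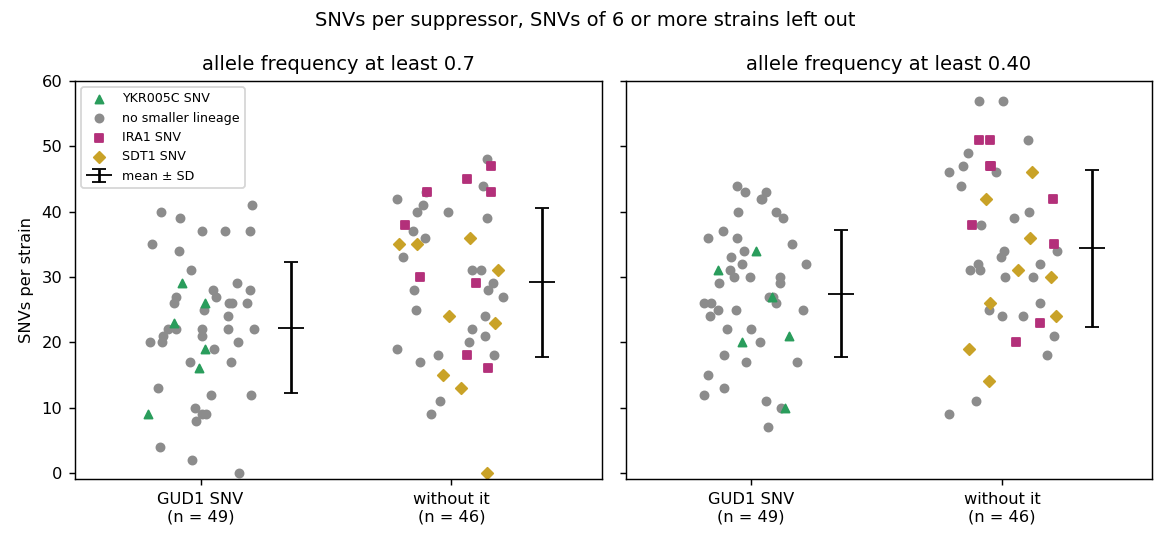
SNVs per suppressor (vertical axis, number) at an allele frequency of at least 0.7 (left) and at least 0.40 (right) for the 49 carriers of the GUD1 SNV and the 46 others; each point is a strain, symbols mark the smaller sets of strains, and bars give the mean and SD. The means were 22.2 against 29.2 at 0.7 and 27.4 against 34.4 at 0.40, and the points of the groups overlap over most of their range.

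A technical value moved with the groups. Among listed SNVs that a strain did not carry, the share with a value above 0 was 1.36 ± 0.492% in carriers (SD, n = 49, median 1.29, from 0.838 to 4.13%) and 1.66 ± 0.567% in the others (SD, n = 46, median 1.56, from 0.625 to 3.27%). The difference of -0.302 percentage points passed the permutation test (p = 0.0051, adjusted p = 0.0204). This share can depend on the depth of a library, which is unknown here, and its part in the difference in SNV number was not tested.

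In a culture of haploid cells, an SNV that every cell holds in its only copy of the site has an allele frequency of 1, and one that some cells or copies lack has less. Outside chromosome XII, 68.2% of the 1074 SNVs of carriers at 0.7 or above were at an allele frequency of 1, and 67.1% of the 1313 of the others. Of all SNVs at 0.40 or above there, 8.36% of 1172 were under 0.7 in carriers and 2.38% of 1345 in the others. Single strains moved these shares: without SUP124 the share was 5.04% in carriers, and without SUP47 it was 1.5% in the others. Most of the strains had a median near 1, and 5 strains stood apart, with most of their SNVs outside chromosome XII under 0.7. These were the carriers SUP23, SUP77, SUP89 and SUP124 and, among the others, SUP47.

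In these 4 carriers the shared and the other SNVs differed. All 4 had an allele frequency of 1 at the 3 SNVs of the 49 carriers. SUP23 had a median allele frequency of 0.609 over its 31 SNVs outside chromosome XII, from 0.402 to 1. SUP124 had a median of 0.585 over 41 SNVs, of which the highest had 0.690, so that it had 0 SNVs at 0.7. SUP77 had a median of 0.643 over 5 SNVs, and SUP89 had a median of 0.693 over 12. In the other 45 carriers the medians ranged from 0.814 to 1, and 2.22% of their SNVs were under 0.7. Without the 5 strains that stood apart, a setting chosen after seeing the data, the difference in SNVs per strain was -5.96 and still passed the permutation test (adjusted p = 0.0406).

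Chromosome XII differed from the rest of the genome in both groups. Of its 173 SNVs in carriers, 91.3% were under 0.7, with a median allele frequency of 0.488. In the others, 87.7% of 236 were under 0.7, with a median of 0.494. All chromosome XII SNVs were under 0.7 in 39 carriers and 34 others, and all were at 0.7 or above in 4 carriers and 7 others. The median allele frequency per strain averaged 0.530 ± 0.140 in carriers (SD, n = 48) and 0.577 ± 0.184 in the others (SD, n = 45), and this difference did not pass the permutation test (difference -0.0473, 95% interval from -0.114 to 0.0196, p = 0.168, adjusted p = 0.252). SUP118 and SUP119 were among the carriers with medians near 1 (0.997 and 1). Of the 4 carriers with all chromosome XII SNVs at 0.7 or above, SUP81, SUP118 and SUP119 had 1 such SNV each. Of the 7 others, SUP68 and SUP70 had 1 each. Outside chromosome XII the difference in SNVs per strain remained, at 21.9 ± 9.90 against 28.5 ± 11.2 (SD, difference -6.63, permutation test, adjusted p = 0.0196).

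**Figure D3:**
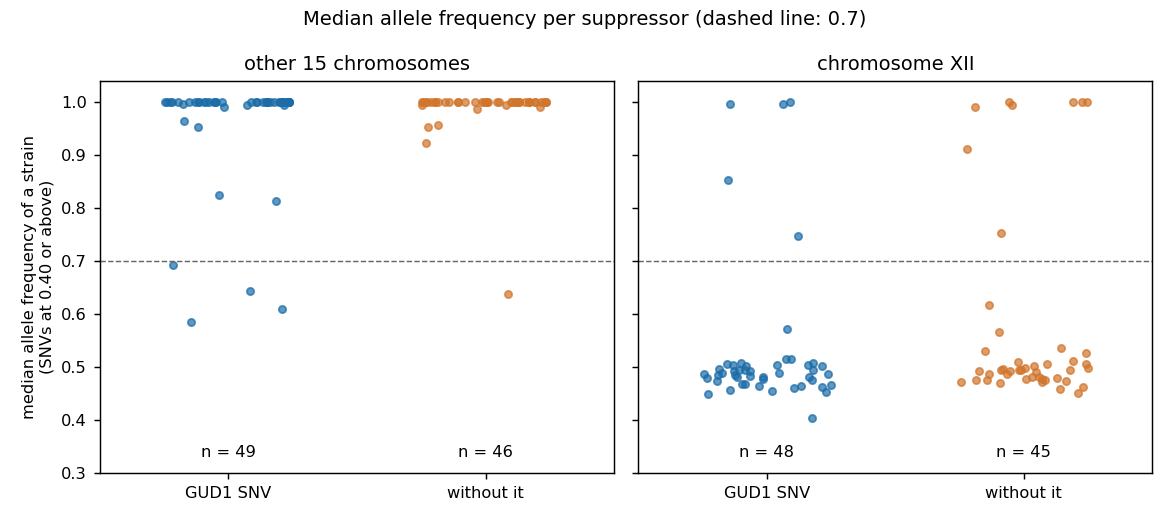
Median allele frequency per suppressor (vertical axis, SNVs at 0.40 or above) outside chromosome XII (left) and on chromosome XII (right); each point is a strain, and the dashed line marks 0.7. Outside chromosome XII, 4 carriers and 1 other strain lie under the line; on chromosome XII most strains of both groups lie near 0.49.

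By chromosome, counted at 0.40, carriers had lower means on 15 of the 16 chromosomes, with chromosome I as the exception (0.633 against 0.543 SNVs per strain). No single chromosome passed the permutation test after adjustment over the 16 (0 called, 0%), and 2 had an unadjusted p under 0.05. On chromosome XII carriers had 3.53 ± 2.25 SNVs (SD, n = 49) and the others 5.13 ± 2.86 (SD, n = 46; permutation test, p = 0.00363, adjusted p = 0.0581). On chromosome XVI the means were 1.88 and 2.57 (permutation test, p = 0.0491, adjusted p = 0.299).

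The substitution spectrum was compared next, with each SNV named by the pyrimidine of its base pair. The classes came in nearly the same order in both groups, with T>C as the most frequent and T>G as the rarest. Summed over strains, carriers had 306 T>C, 209 C>A, 190 C>T, 168 T>A, 167 C>G and 49 T>G SNVs, 1089 in all. The others had 339 T>C, 255 C>A, 239 T>A, 237 C>T, 209 C>G and 63 T>G SNVs, 1342 in all. The spectra did not differ beyond the spread between strains (chi-square 3.96, permutation test over strains, p = 0.547).

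As means of the strains' own shares, T>C made up 27 ± 9.98% in carriers and 26.2 ± 9.15% in the others (SD, n = 48 and 45, strains with no counted SNV left out). C>A made up 19.2% and 18.1%, T>A 17.4% and 17.7%, C>T 16.97% and 17.7%, and C>G 15.5% and 15.5%. T>G, the rarest, made up 3.92% and 4.79%. All 6 differences had an adjusted p of 0.972 in the permutation test. The 95% interval was widest for T>A, from -5.39 to 4.65 percentage points, and narrowest for T>G, from -2.55 to 0.798. For T>C it was from -3.11 to 4.67 percentage points. Transitions (C>T and T>C) made up 44.0% in carriers and 43.9% in the others, with an interval of the difference from -4.26 to 4.40 percentage points (permutation test, p = 0.975, adjusted p = 0.975). Within the groups, the transition share was 53.2 ± 12.1% in the 9 SDT1 strains and 40.7 ± 7.24% in the remaining 28 others (SD), and 43.8 ± 12.3% in the 6 YKR005C carriers.

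**Figure D4:**
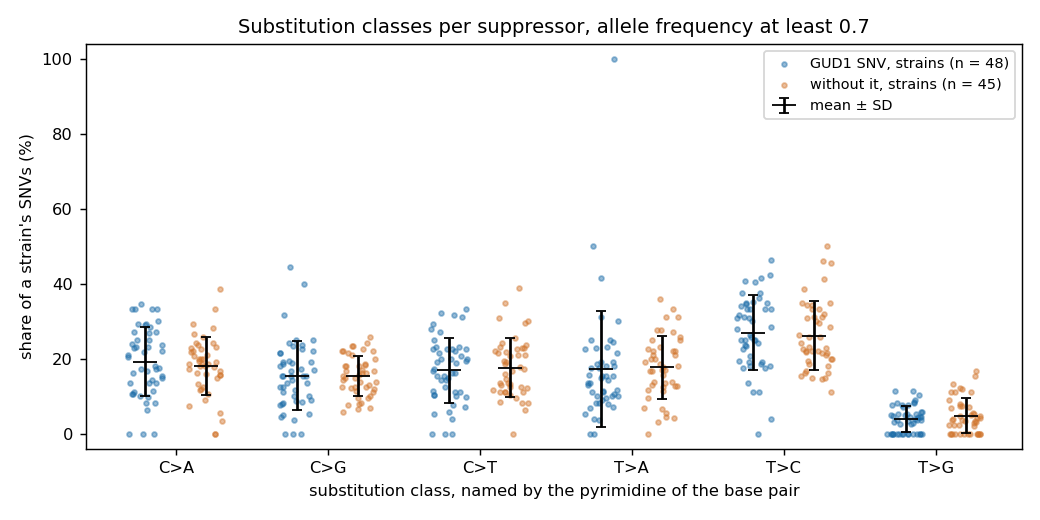
Share of each substitution class among the SNVs of a strain that reached an allele frequency of 0.7 (vertical axis, %) for 48 carriers of the GUD1 SNV and 45 others; points are strains and bars give the mean and SD. The means of the groups differ by at most 1.11 percentage points, in C>A; the point at 100% is SUP77, which had 2 SNVs.

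Within coding sequence, the share of SNVs whose pyrimidine lay on the coding strand was 48.5 ± 17.02% in carriers and 47.3 ± 10.6% in the others (SD, n = 48 and 45; permutation test, p = 0.697, adjusted p = 0.761).

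Changes of protein sequence were also fewer in carriers. Nonsilent SNVs (missense, nonsense, start-lost or stop-lost) numbered 11.4 ± 5.63 in carriers (SD, n = 49, median 12, from 0 to 23) and 14.7 ± 6.43 in the others (SD, n = 46, median 15, from 0 to 26). The difference of -3.22 passed the permutation test (SE 1.24, p = 0.0123, adjusted p = 0.0295). Genes with a nonsilent SNV numbered 11.2 ± 5.47 per carrier (from 0 to 23) and 14.4 ± 6.29 per other strain (SD, from 0 to 26; difference -3.19, permutation test, p = 0.0109, adjusted p = 0.0295). Both calls were lost without the IRA1 strains (differences -2.60 and -2.63, adjusted p = 0.125 for both), without the YKR005C strains (adjusted p = 0.0507 for both) and with medians in place of means (-3 and -2, adjusted p = 0.127 and 0.239).

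The proportions of effects did not differ detectably. Of coding SNVs, 72.4 ± 16.9% were nonsilent in carriers and 73.7 ± 10.7% in the others (SD, n = 48 and 45; 95% interval of the difference from -7.05 to 4.39 percentage points, permutation test, p = 0.664, adjusted p = 0.761). SNVs outside annotated genes made up 25.5% and 27.6% (permutation test, p = 0.344, adjusted p = 0.458). Synonymous SNVs numbered 4.14 ± 2.51 and 5.20 ± 2.86 per strain (SD; permutation test, p = 0.0653, adjusted p = 0.112). Summed over strains, carriers had 539 missense, 202 synonymous, 16 nonsense, 3 stop-lost and 2 start-lost SNVs, and the others had 644, 239, 28, 2 and 0.

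SUP118 and SUP119 again stood out. They had 16 and 18 nonsilent SNVs and 0 synonymous SNVs each, and of all strains with 10 or more nonsilent SNVs these 2 were the only ones without a synonymous SNV. Of their 19 shared SNVs, 14 were missense, 1 was nonsense, 0 were synonymous and 3 lay outside genes. The 15 genes with a shared nonsilent SNV included XRN1, the cytoplasmic 5′ to 3′ exoribonuclease, PMA1, the plasma membrane proton pump, BFA1, a component of the spindle position checkpoint, and the ribosome biogenesis genes NOP56, UTP22 and BUD22.

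Nonsense SNVs were compared since they are the most likely to abolish a protein. Carriers had 0.327 ± 0.625 per strain (SD, n = 49, from 0 to 2) and the others 0.609 ± 0.714 (SD, n = 46, from 0 to 3), a difference of -0.282 that did not pass the test after adjustment (permutation test, p = 0.0491, adjusted p = 0.0981). The 16 nonsense SNVs of carriers lay in 12 strains and 15 genes, and the 28 of the others in 23 strains and 28 genes.

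Of the nonsense SNVs of carriers, SUP91 had C404520T on chromosome VIII in RTT107, a scaffold that binds damaged replication forks. SUP117 had T140847A on chromosome III in POL4, the DNA polymerase of end joining. SUP130 had G886981T on chromosome XV in ISW2, a chromatin remodeller, and SUP73 had T446110A on chromosome XV in YNG1, a subunit of a histone acetyltransferase.

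The remaining nonsense SNVs of carriers lay in genes of other roles. SUP92 had G282412C on chromosome IX in NOT3, a subunit of the CCR4-NOT complex of mRNA decay. SUP73 had G163439T on chromosome VI in GCN20, which acts with Gcn1 on the kinase Gcn2, and SUP117 had A493931T on chromosome II in ATG14, an autophagy gene. SUP118 and SUP119 shared A162669T on chromosome IX in YIL108W, the only gene with a nonsense SNV in both groups. The rest were BPH1 in SUP111, CFF1 in SUP79, CRF1 in SUP74, FLC1 in SUP119, PFF1 in SUP82, RGD2 in SUP91 and SSP1 in SUP76. The allele frequency of the nonsense SNVs in carriers was at least 0.959.

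Start and stop codons were lost in 5 carriers. Start codons were lost in CTR1, the copper transporter gene, in SUP114 and in OAF3, a transcriptional regulator of oleate-responsive genes, in SUP86. Stop codons were lost in PEX27, a peroxisome gene, in SUP100, in RTT106, a histone chaperone gene, in SUP75 and in YAL069W in SUP82. The last 2 had allele frequencies of 0.748 and 0.739, close to the minimum of 0.7, whereas the first 3 had 1.

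Genes were then compared one by one, to ask whether any gene was mutated more often in one group. A nonsilent SNV was found in 1012 genes, 491 of them in carriers and 600 in the others. The 79 genes found in both made up 16.1% of those of carriers and 13.2% of those of the others. Most genes, 852, were mutated in 1 strain and 31 in 3 or more, and the largest number of strains was 5. By Fisher's exact test, two-sided and adjusted over all 1012 genes, 0 genes differed (0%), and 0 had an unadjusted p under 0.05 (lowest p = 0.110, adjusted p = 0.898). The numbers limit this test: a gene mutated in 5 strains that were all carriers would have had an exact p of 0.0566, and one mutated in 6 such strains 0.0269, whereas 5 strains that all lacked the GUD1 SNV would have had 0.0237. With no gene mutated in more than 5 strains, no gene could have been called after adjustment over 1012 genes. The count of 0 therefore does not show that genes were mutated alike in both groups.

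Of the 31 genes mutated in 3 or more strains, 23 were mutated in both groups, 2 in carriers and not in the others, and 6 in the others and not in carriers. Over all 1012 genes, 491 were mutated in carriers, 600 in the others and 79 in both. Carriers held 45.4% of all 1234 nonsilent SNVs, and the counts of 2 and 6 were not tested against this share. SUP118 and SUP119 both contributed to 8 of the 31, and 26 genes were still mutated in 3 or more strains when SUP119 was left out. The 2 genes mutated in carriers and not in the others were XRN1 and BUD17. In XRN1, SUP79 had T176908C and G177944C on chromosome VII, SUP86 had C179113T, and SUP118 and SUP119 had C179270T, all missense with an allele frequency of 1. Thus 4 carriers and 0 others had an XRN1 SNV (Fisher's exact test, p = 0.118, adjusted p = 0.898), and the SNVs were of 3 different sets. BUD17, a putative pyridoxal kinase gene, had C675456A on chromosome XIV in SUP118 and SUP119 and A675661T in SUP84. In both genes the test counted SUP118 and SUP119 as separate strains, although they cannot be counted as independent.

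The 6 genes mutated in 3 of the others and 0 carriers were NMD2, a factor of nonsense-mediated mRNA decay, MMS4, a subunit of a structure-specific nuclease, GCN1, a regulator of the kinase Gcn2, EAP1, a translation repressor, ERC1 and YPR148C (Fisher's exact test, p = 0.110, adjusted p = 0.898 each). In YPR148C, SUP65 and SUP67 had the same SNV, T827100G on chromosome XVI, and the test counted them as separate strains. Of the genes mutated in both groups, DCP2, the catalytic subunit of the mRNA decapping enzyme, and YIL108W had the most strains. DCP2 was mutated in 2 carriers, with G403707T in SUP131 and G404407C in SUP91, and in 3 others. Of these others, SUP35 and SUP40 had the same SNV, T405341G. YIL108W was mutated in 3 carriers, with the nonsense SNV above in 2 of them and the missense SNV T162565C in SUP122, and in 2 others. YDL124W, which encodes an aldo-keto reductase, was mutated in 3 carriers, of which SUP96 had 2 SNVs, and in 1 other strain.

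The remaining genes were mutated in 3 strains each. BPH1, GPB2, HPF1, IPT1, IRA2, MYO2, PDR3, PMA1, SNT1, SRO77, SRS2 and UBP9 were mutated in 2 carriers and 1 other strain. In IPT1, PMA1, SRO77 and UBP9 the 2 carriers were SUP118 and SUP119 with the same SNV. ABP1, DUN1, LTE1, SYT1, TEA1, TRA1, YPL247C and YTM1 were mutated in 1 carrier and 2 others.

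**Figure D5:**
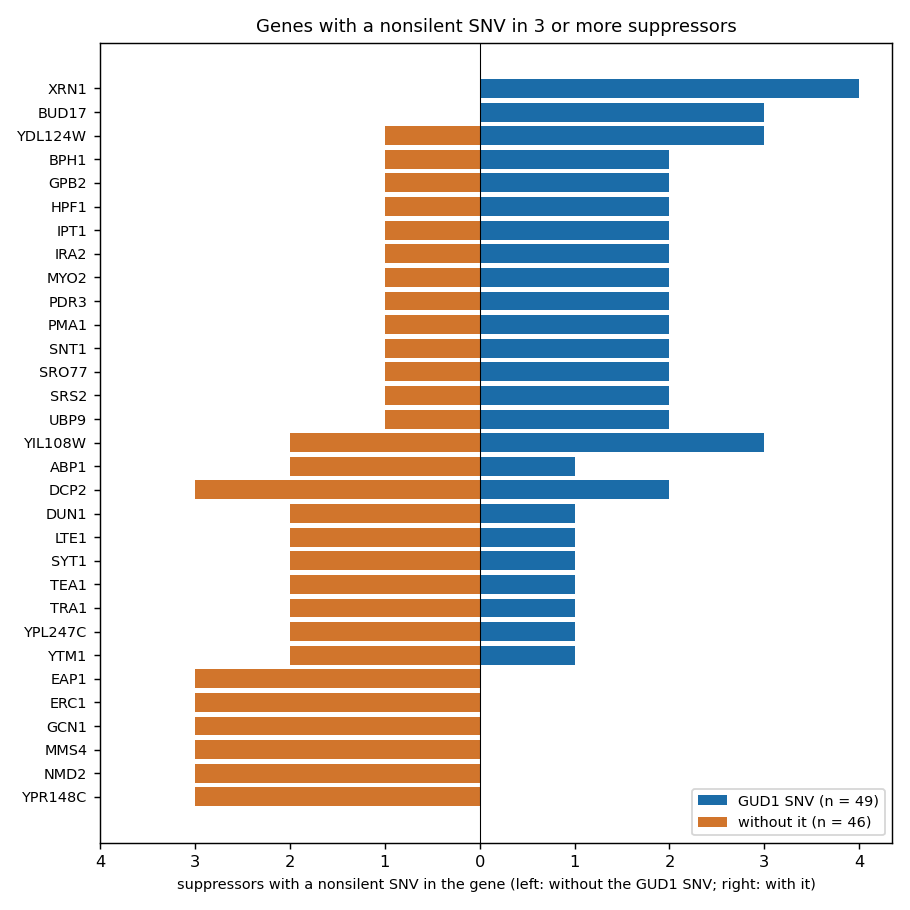
Number of suppressors with a nonsilent SNV (horizontal axis) in each of the 31 genes mutated in 3 or more suppressors, for carriers of the GUD1 SNV (right of the line, n = 49) and the others (left of the line, n = 46). Bars reach 4 strains for XRN1 in carriers and 3 for DCP2 and 6 further genes in the others, and 23 genes have bars on both sides.

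Genes of pathways were counted by list, beside all genes, of whose 1234 nonsilent SNVs 45.4% were in carriers, who make up 51.6% of the strains. These counts are at 0.7, a limit that leaves out most SNVs of chromosome XII in both groups, and counts at 0.40 are given where they changed by 1.5 times or more. For mRNA decay (28 genes) carriers had 10 nonsilent SNVs in 9 strains and the others 9 in 8 strains. The XRN1 SNV of SUP118 and SUP119 and the DCP2 SNV of SUP35 and SUP40 were each counted in both strains. Beside XRN1, DCP2 and NOT3, carriers had C635226G on chromosome VII in UPF3, a factor of nonsense-mediated decay, in SUP78 and A294203G on chromosome V in MOT2, a subunit of CCR4-NOT, in SUP74. Carriers thus had SNVs in 5 of these genes and the others in 4.

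For the histone deacetylase complex Rpd3L and the demethylase Rph1 (13 genes), carriers had 0 nonsilent SNVs and the others 3. For the Set3 deacetylase complex (7 genes), carriers had 2 and the others 1, all in its subunit SNT1, with C188031T on chromosome III in SUP86 and G188435T in SUP79. For silencing (21 genes), carriers had 4 in 4 strains and the others 5 in 5, whereas at 0.40 the order turned, with 7 carriers and 6 others. Those of carriers at 0.7 were in SIR1, which helps to establish silencing at the mating-type loci, in SUP84, in SUM1, a repressor of sporulation genes, in SUP82, and in YKU70 and YKU80, the subunits of the Ku complex, in SUP106 and SUP116.

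For the checkpoint (22 genes), carriers had 4 nonsilent SNVs in 4 strains and the others 8 in 7, and at 0.40 the strains numbered 6 and 7. In carriers at 0.7 these were A508993G on chromosome II in MEC1, the kinase upstream of Rad53, in SUP75, C52194A on chromosome II in TEL1, a related kinase, in SUP76, A179409G on chromosome XVI in DDC1, a subunit of the checkpoint clamp, in SUP23, and T281308A on chromosome IV in DUN1, the kinase downstream of Rad53, in SUP105. The DDC1 SNV had an allele frequency of 1 in SUP23, where most SNVs were intermediate.

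For DNA repair and damage tolerance (56 genes), carriers had 9 nonsilent SNVs in 8 strains and the others 11 in 11. In carriers the DNA glycosylase genes of base excision repair NTG1, with G127877C and A127881C on chromosome I in SUP117, and NTG2, with G249500T on chromosome XV in SUP112, were mutated, and in the others the glycosylase genes OGG1 and UNG1 in 1 strain each. SRS2, a DNA helicase gene, was mutated in SUP92 and SUP93, and RAD1, RAD52, MMS1 and RTT107 in 1 carrier each. For the replicative polymerases (11 genes), carriers had 3 and the others 2, and all 3 were in subunits of polymerase epsilon: POL2 in SUP125 with an allele frequency of 0.804, DPB2 in SUP75 with 0.776 and DPB4 in SUP111 with 1.

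The pathway of the defining gene was also counted. For guanine, purine and pyrimidine metabolism (41 genes), carriers had 4 nonsilent SNVs in 4 strains beside the GUD1 SNV and the others 3 in 3 strains, whereas at 0.40 the order turned, with 5 carriers and 6 others, of which 3 had an SNV in IMD2. The 3 IMD2 SNVs, on chromosome VIII, had allele frequencies of only 0.405 to 0.486. Those of carriers at 0.7 were in genes of purine synthesis or one-carbon supply: ADE1 in SUP91, ADE12 in SUP93, ADE17 in SUP79 and ADE3 in SUP74. For the supply of deoxynucleotides (15 genes), carriers had 4 in 4 strains and the others 2 in 2, or 4 and 3 strains at 0.40. Those of carriers were T238986G and G239718C on chromosome IX in RNR3, a large subunit of ribonucleotide reductase, in SUP84 and SUP91, G209886T on chromosome XV in CRT10, a regulator of the reductase genes, in SUP90, and the DUN1 SNV.

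For clathrin and endocytosis (12 genes, CHC1 among them), carriers had 0 nonsilent SNVs and the others 4, of which 1 was in CHC1. For the Ras-PKA pathway (15 genes), carriers had 5 in 5 strains and the others 1, or 5 and 2 strains at 0.40. In carriers these were IRA1 in SUP129, IRA2 in SUP127 and SUP116, GPR1, a glucose receptor, in SUP76 and PDE2, a phosphodiesterase, in SUP121. The shared IRA1 SNV of 9 others was left out of this count, as were all SNVs of 6 or more strains. The study chose 32 genes on these samples and tested them by deletion. In these genes carriers had 15 nonsilent SNVs in 14 strains and the others 30 in 23, so that 33.3% were in carriers. The counts are not independent of that choice, and their direction was not tested.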

How the data were processed

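Genomic DNA of the suppressors and YJT75 was sequenced with paired-end reads. The authors aligned reads to sacCer2 with Novoalign 2.07.14, removed duplicates from the 101-base reads with Picard 1.81, counted bases with deepSNV at a base quality of at least 30, called SNVs jointly over the 96 libraries, required an allele count of at least 20 and an allele frequency of at least 0.40, discarded SNVs at 0.1 or more in the control, and annotated effects with snpEff. The deposited values are allele frequencies, a fraction per SNV and strain, in which 10 stands for 1.0 (1814 cells, read as 1). No counts of reads are in the tables used here, so the depth per value is unknown, no interval is given for a single allele frequency, and the precision of a mean depends on how many strains it covers. The highest value in YJT75 among listed SNVs was 0.0957.

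SNVs at 0.7 or above, the minimum of the study's methods, were counted per strain after leaving out SNVs carried (0.40 or above) by 6 or more strains. Chromosome counts used 0.40. Group means were compared by two-sided permutation tests over strains (100000 draws) and genes by Fisher's exact test, with Benjamini-Hochberg adjustment over 12 measures, 6 classes, 16 chromosomes or 1012 genes, called at 0.05. Intervals are normal approximations from the standard error. P-values treat strains as independent, although some share SNVs. Tests used scipy 1.17.1 and numpy 2.4.6 under Python 3.11.15, tables pandas 2.3.3 and plots matplotlib 3.10.9, and the scripts were tested on simulated data. Symbols came from the R64 gene table, which matched 989 of 1012 gene identifiers; no R64 position was used.

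Named genes were those with an SNV of 6 or more strains, those with nonsilent SNVs in 3 or more strains, those with a nonsense SNV in a carrier, listed pathway genes with a nonsilent SNV in a carrier and those with the lowest p. Other genes were named after their values were seen. The members and lists were chosen with earlier results of these data known. Alternatives changed the minimum allele frequency, the control filter, the treatment of shared SNVs and chromosome XII, the summary and the set of strains.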

Additional observations from a re-analysis of the deposited data

How the results depend on the processing

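Of 341 alternative values, 324 stayed on their side of the threshold and 17 moved to the other side, with a call gained or lost. The 324 include the 14 of the per-gene comparison, which called 0 genes in every setting. Another 17 values, which stayed on their side, had the other sign than the main value. All of these were of differences that did not pass the test in either setting (shares of substitution classes, transitions, coding-strand and nonsilent SNVs, and SNVs on chromosome III). SNVs per strain were lower in carriers under all 14 alternatives, by differences of -8.32 to -5.69 (permutation tests, adjusted p from 0.00408 to 0.0674). Without the IRA1 strains the test was no longer passed for SNVs per strain (-5.69), SNVs outside chromosome XII (-5.57), nonsilent SNVs (-2.60) and mutated genes (-2.63). Nonsilent SNVs and mutated genes also lost their calls without the YKR005C strains (-3.05 and -3.02) and with medians (-3 and -2). Under alternatives chosen after seeing the data, they lost them without the 3 smaller sets of strains together (-3.04 and -3.12, adjusted p = 0.0820 and 0.0817, permutation tests) and without the 5 strains of mostly intermediate allele frequency (-2.69 and -2.67, adjusted p = 0.0613 for both, permutation tests). Synonymous SNVs passed the test at a minimum of 0.9 (-1.30) and without the SDT1 strains (-1.37), whereas without the IRA1 strains the difference was -0.560 (adjusted p = 0.413, permutation test). Nonsense SNVs passed it with SNVs of 1 strain only (-0.323), with 1 strain of each close pair (-0.331) and without the SDT1 strains (-0.403), whereas at 0.40 the difference was -0.183 (adjusted p = 0.367, permutation test). Fewer strains enter some of these settings, and otherwise the cause was not tested. A planned restriction to genes mutated in 6 or more strains left 0 genes. No paired analysis was possible because the strain numbers only name strains and no number is shared between the groups.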
